A study of Mus musculus with 10 samples.

Results

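A group of 45 genes of DNA replication and nucleotide supply was examined in haematopoietic stem cells (HSCs) sorted from the bone marrow of adult mice with an inducible Sox17 transgene and of their wild-type littermates. They were chosen by name and role, from the licensing of origins to the making of deoxynucleotides. Earlier results of these data were known when they were chosen. For each gene the probe set (a group of array probes read as 1 value) with that gene as its only symbol and the highest mean over all 10 arrays was taken. All 45 had such a probe set, among 23410 tested probe sets with at least 1 gene symbol.

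The transgenic group was 5 arrays of HSCs from mice carrying both (tetO)7CMVSox17-IRES-NucEGFP, which places Sox17 and a nuclear green fluorescent protein under a tetracycline-responsive CMV promoter, and Gt(ROSA)26Sortm1(rtTA*M2)Jae, a reverse tetracycline transactivator at the Rosa26 locus, on a B6.Cg background. The wild-type group was 5 arrays of HSCs from littermates labelled wild type, for which no allele is named. Mice of both groups were 8 weeks old and had drunk water with 2 mg/ml doxycycline, the drug that switches the transgene on, for 5 days. Rosa26 is active in most cell types, so induction was not limited to HSCs by the construct. Each array came from 10000 cells sorted as CD150+, Sca1+ and cKit+ and as negative for CD48 and lineage markers. The aliquots are called independent but are not tied to single animals. The p-values below therefore cover the spread between aliquots, some of which may be technical.

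A cell copies its genome once per division. In G1 phase the origin recognition complex, Cdc6 and Cdt1 load the ring-shaped Mcm2 to Mcm7 helicase onto origins, and in S phase the kinases Cdk2 and Cdc7, with Mcm10, Cdc45 and the GINS complex, switch the helicase on so that primase and the polymerases can follow. Many of these genes, with those that make deoxynucleotides, are transcribed in late G1 and S phase under E2F transcription factors, and adult HSCs are known for spending most of their time outside the cycle.

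The promoters of the 4 members with the smallest p among those with a promoter in the RefSeq table used here (assembly GRCm38.p6) are shown first. Each runs from 250 bases before to 50 bases after the transcription start, written along the gene's strand. Capitals mark any of 4 E2F words, TTTCCCGC, TTTCGCGC, TTTGCCGC and TTTGGCGC, read on either strand.
Cdc6 promoter (chr11:98907901-98908200, plus strand): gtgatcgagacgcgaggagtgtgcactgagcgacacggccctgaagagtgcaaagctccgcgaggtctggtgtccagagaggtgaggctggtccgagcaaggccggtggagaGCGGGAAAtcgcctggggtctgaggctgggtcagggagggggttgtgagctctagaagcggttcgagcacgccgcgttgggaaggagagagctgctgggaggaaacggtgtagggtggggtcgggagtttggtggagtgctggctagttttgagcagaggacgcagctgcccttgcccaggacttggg
Wdhd1 promoter (chr14:47276808-47277107, minus strand): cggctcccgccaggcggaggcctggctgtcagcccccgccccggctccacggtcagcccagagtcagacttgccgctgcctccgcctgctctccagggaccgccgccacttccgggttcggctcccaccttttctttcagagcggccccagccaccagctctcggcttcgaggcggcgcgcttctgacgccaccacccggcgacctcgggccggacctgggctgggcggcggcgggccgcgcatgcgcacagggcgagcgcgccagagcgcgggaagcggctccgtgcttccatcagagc
Dut promoter (chr2:125247265-125247564, plus strand): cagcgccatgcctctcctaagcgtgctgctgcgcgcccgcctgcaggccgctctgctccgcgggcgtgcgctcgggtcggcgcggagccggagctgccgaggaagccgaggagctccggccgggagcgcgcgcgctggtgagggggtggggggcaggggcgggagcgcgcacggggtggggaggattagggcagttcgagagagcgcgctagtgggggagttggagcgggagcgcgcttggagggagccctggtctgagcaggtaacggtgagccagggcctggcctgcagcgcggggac
Pold1 promoter (chr7:44548766-44549065, minus strand): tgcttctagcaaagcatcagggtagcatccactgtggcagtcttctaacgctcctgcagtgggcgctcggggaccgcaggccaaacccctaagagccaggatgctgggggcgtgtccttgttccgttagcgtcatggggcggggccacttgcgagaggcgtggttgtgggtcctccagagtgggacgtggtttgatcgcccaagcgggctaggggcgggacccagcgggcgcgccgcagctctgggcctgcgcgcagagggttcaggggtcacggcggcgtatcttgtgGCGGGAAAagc
The Cdc6 and Pold1 windows each held 1 E2F word, and those of Wdhd1 and Dut held none of these letters.

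A promoter window was found for 36 of the 45 members. Gmnn, Mcm4, Gins1, Gins2, Gins4, Pole, Prim2, Rfc2 and Tipin had none in the table. At least 1 E2F word lay in the windows of 14 of the 36 members (38.9%), against 704 of 27025 genes with a window (2.60%). Those 14 members held 18 sites, overlapping words merged into 1 site, of which 10 lay before the transcription start, at 10 to 185 bases, and 8 after it. The following sites of licensing, helicase, polymerase and chromatin genes, chosen after the words were found, are given with up to 10 bases on either side.
Orc1 site (chr4:108579417-108579444, plus strand, 27 bases before the start): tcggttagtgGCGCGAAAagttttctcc
Cdt1 site (chr8:122568037-122568064, plus strand, 33 bases after the start): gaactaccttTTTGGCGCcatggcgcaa
Mcm5 site (chr8:75109346-75109377, plus strand, 153 bases before the start): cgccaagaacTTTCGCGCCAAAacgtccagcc
Mcm6 site (chr1:128359735-128359762, minus strand, 47 bases before the start): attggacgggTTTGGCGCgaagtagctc
Mcm6 site (chr1:128359794-128359825, minus strand, 110 bases before the start): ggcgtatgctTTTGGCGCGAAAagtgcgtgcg
Pole2 site (chr12:69228163-69228190, minus strand, 11 bases after the start): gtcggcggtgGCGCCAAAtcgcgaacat
Uhrf1 site (chr17:56304118-56304145, plus strand, 185 bases before the start): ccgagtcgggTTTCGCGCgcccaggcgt
The Mcm5 site and the Mcm6 site farther from the start each hold 2 overlapping words. The CCAAT box (CCAAT, either strand), bound by the factor NF-Y, was in 21 of the 36 member windows (58.3%) and in those of 41.1% of genes. The word TTTGAA on either strand, the cell cycle homology region of late cell cycle promoters, was in 7 of 36 (19.4%) and in 20.2% of genes. Member windows had a median GC content of 61.3%, against 52.7% over all windows. A word match is a description of these letters and does not show binding.

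The labels were checked on Sox17 itself. Its probe set averaged 4.37 ± 0.13 log2 units in transgenic HSCs and 4.21 ± 0.13 in wild-type HSCs (SD, n = 5 each), with a change of 0.16 (SE 0.09, limma adjusted p = 0.855). The mean lay at the 23.2 percentile of tested probe sets, so no induction was detectable there, and each direction below depends on how the arrays were labelled. Transgenic array 4 stood apart in sex: it read 4.32 for Xist and 9.23 for the Y-linked Eif2s3y, against 10.8 to 11.4 and 2.57 to 2.87 on the other 9 arrays. The arrays also parted into a set A (transgenic arrays 1, 2 and 3, wild-type arrays 1 and 2) and a set B (transgenic arrays 4 and 5, wild-type arrays 3, 4 and 5). These sets were defined from the values, by the sign of the first principal component once each group's mean had been subtracted.

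All 45 members had a negative change, that is a lower mean on the transgenic arrays, against 53.7% of the tested probe sets. The median change of the members was -0.36 log2 units, which is 78.0% of the wild-type level, and the median over all tested probe sets was -0.01. Changes ran from -0.72 for Cdc6 to -0.05 for Dbf4: 12 members were at -0.5 or lower, 23 lay between -0.5 and -0.2, and 10 between -0.2 and 0. No member passed the adjusted p of 0.05 (limma, Benjamini-Hochberg over all tested probe sets), and adjusted p ran from 0.120 for Cdc6 to 0.994 for Dbf4. Over all tested probe sets 33 passed (0.141%), 5 of them lower on the transgenic arrays (0.0214%). At an unadjusted p of 0.05, 26 of the 45 members were lower, against 2.9% of the tested probe sets. In 7 members (Cdc6, Wdhd1, Dut, Pold1, Tyms, Cdc45 and Mcm10) each transgenic array read below each wild-type array, which held for 0.594% of the tested probe sets. As the members were chosen with earlier results of these data known, these counts and shares are a description and not a test of the list. In sorted bulk RNA, fewer cells of a type, such as cells in S phase, and less RNA per cell cannot be told apart.

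**Figure D1:**
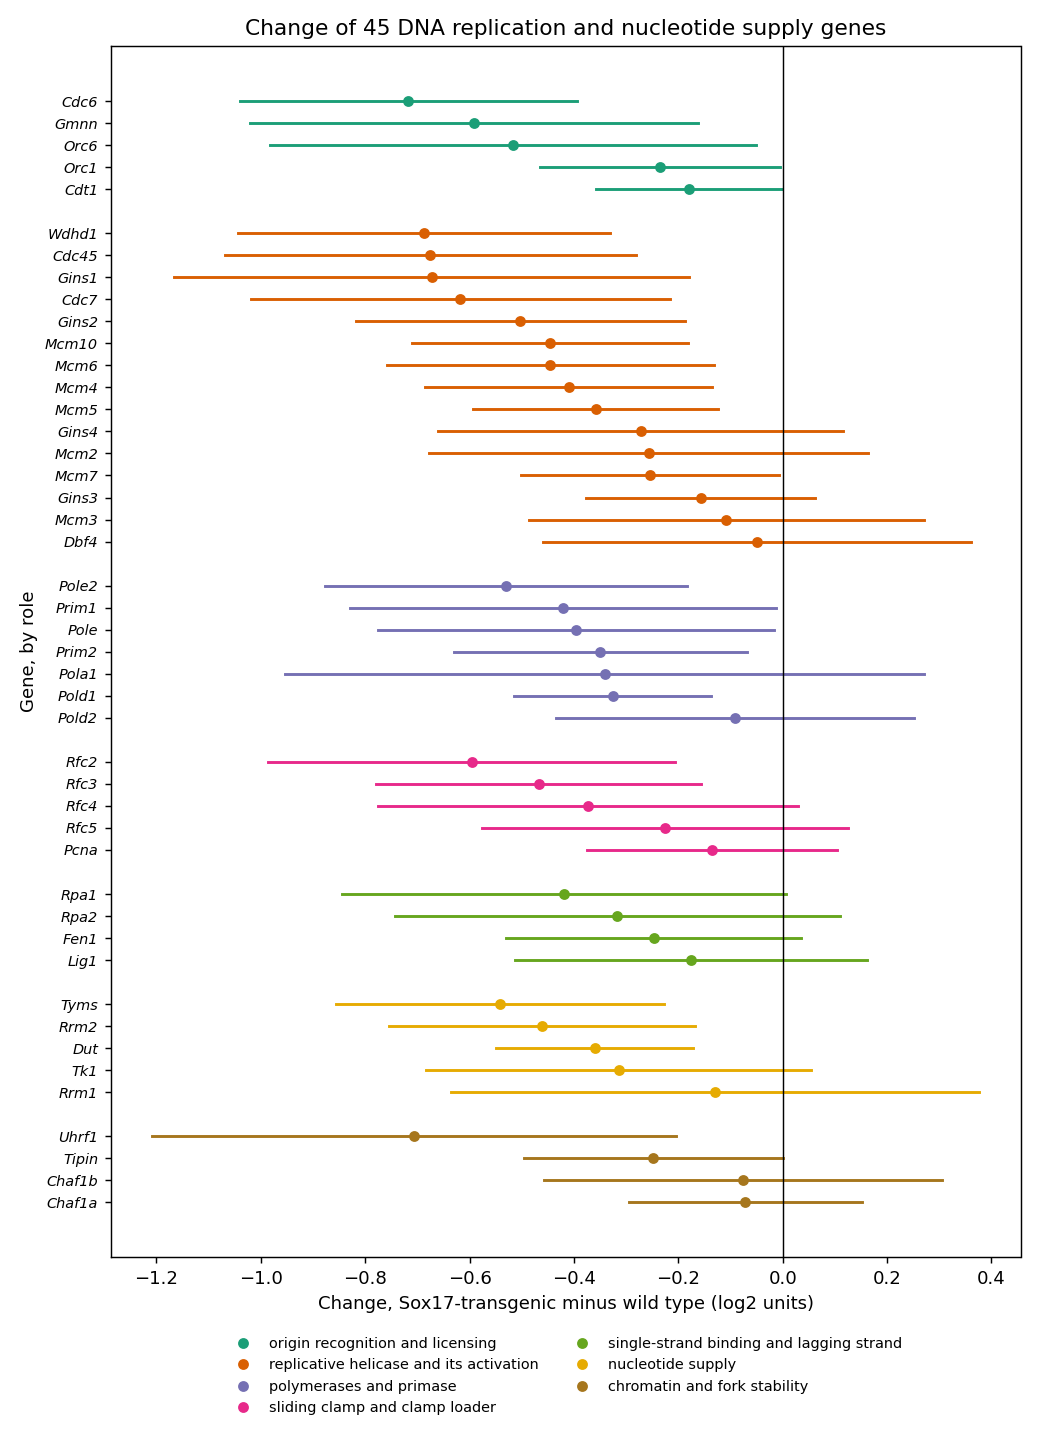
The log2 change (transgenic minus wild type, horizontal axis) of each of the 45 genes is a point with its 95% confidence interval from limma, grouped by role. All 45 points lie left of 0, from -0.72 for Cdc6 to -0.05 for Dbf4, and the intervals of many members cross or nearly reach 0.

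The members were measured well above the bottom of the arrays. Their mean levels lay between the 44.3 and the 97.8 percentile of the tested probe sets, with a median at the 75.8 percentile. Probe sets differ in affinity, so levels are compared within a gene only. The median SD of a member over 5 arrays was 0.24 log2 units in the transgenic group and 0.25 in the wild-type group.

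The 5 licensing genes, which mark and load origins or, for Gmnn, restrain that step, had a median change of -0.52. All 5 had an unadjusted p under 0.05. Cdc6, the ATPase that joins the origin recognition complex to load the helicase, read 6.39, 6.40, 6.23, 5.90 and 6.25 log2 units on transgenic arrays 1 to 5, against 6.67, 7.41, 6.72, 6.96 and 6.98 on wild-type arrays 1 to 5. The highest transgenic value lay below the lowest wild-type value, with transgenic array 4 lowest of all and wild-type array 2 highest. Its change was -0.72 (SE 0.15, adjusted p = 0.120), a level of 0.608 of wild type, and it had the smallest p of the 45 members. Gmnn encodes geminin, which binds Cdt1 and blocks relicensing. Gmnn averaged 6.73 ± 0.39 in transgenic HSCs and 7.32 ± 0.31 in wild-type HSCs (SD, n = 5 each), a change of -0.59 (SE 0.20, adjusted p = 0.478). Orc6, the smallest subunit of the origin recognition complex, differed by -0.52 (SE 0.21, adjusted p = 0.691), and wild-type array 1, at 7.51, read about as low as transgenic array 2, at 7.49. Orc1, the ATPase subunit of that complex, had a change of -0.24 (SE 0.10, adjusted p = 0.744) and a transgenic SD of 0.04. Cdt1, the helicase loader held by geminin, had a change of -0.18. Orc1 and Cdt1 were the only members below the median level of the tested probe sets.

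The 15 genes of the replicative helicase and its activation had a median change of -0.41, and 10 had an unadjusted p under 0.05. The 6 subunits of the Mcm2 to Mcm7 ring are described one by one, as they act as 1 complex. Mcm2 read 7.40, 7.64, 7.46, 7.16 and 7.04 on transgenic arrays 1 to 5, against 7.87, 8.18, 7.27, 7.46 and 7.21 on wild-type arrays 1 to 5. For Mcm3 the transgenic arrays gave 7.76, 7.95, 8.01, 7.66 and 7.31 and the wild-type arrays 7.97, 8.30, 7.51, 7.88 and 7.57. The groups overlapped in both genes: transgenic arrays 1, 2 and 3 read higher than wild-type array 3, and the changes were -0.26 for Mcm2 and -0.11 for Mcm3. Mcm4 gave 7.38, 7.02, 7.17, 7.15 and 6.82 on the transgenic arrays, against 7.65, 7.80, 7.45, 7.41 and 7.27 on the wild-type arrays. Mcm5 came to 7.59, 7.53, 7.44, 7.68 and 7.17 on the transgenic arrays, against 7.78, 8.02, 7.67, 7.86 and 7.87 on the wild-type arrays. In each of these genes 4 of 5 transgenic arrays lay below the lowest wild-type array, transgenic array 1 being the exception for Mcm4 and transgenic array 4 for Mcm5. Mcm6 values were 8.88, 8.87, 9.001, 8.97 and 8.29 on the transgenic arrays, against 9.26, 9.48, 9.31, 9.20 and 8.99 on the wild-type arrays. Mcm7 values were 7.30, 6.95, 7.03, 7.09 and 7.03 on the transgenic arrays, against 7.57, 7.55, 7.09, 7.24 and 7.21 on the wild-type arrays. Only transgenic array 3 of Mcm6 and transgenic array 1 of Mcm7 read above their lowest wild-type array. The changes were -0.41 for Mcm4, -0.36 for Mcm5, -0.45 for Mcm6 and -0.25 for Mcm7, and the median of the 6 subunits was -0.31.

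The factors that act with the ring included the members with the largest changes of this role. Wdhd1 (Ctf4 in yeast) tethers polymerase alpha to the helicase. It read 7.43, 7.69, 8.13, 8.04 and 8.14 on transgenic arrays 1 to 5, against 8.28, 8.41, 8.91, 8.57 and 8.69 on wild-type arrays 1 to 5, with no overlap and a change of -0.69 (SE 0.16, adjusted p = 0.204). Cdc45, the subunit that joins the ring to GINS, read 7.06, 6.72, 7.27, 7.24 and 6.95 on the transgenic arrays, against 7.39, 7.64, 8.37, 7.48 and 7.74 on the wild-type arrays. The groups of Cdc45 did not overlap, wild-type array 3 stood highest, and the change was -0.68 (SE 0.18, adjusted p = 0.298). Mcm10, needed for origin firing, gave 6.39, 6.31, 6.02, 5.81 and 5.95 on the transgenic arrays, against 6.47, 6.74, 6.48, 6.60 and 6.43 on the wild-type arrays. Its groups came within 0.04 of each other without overlap, and the change was -0.45 (SE 0.12, adjusted p = 0.312). Cdc7, the kinase that phosphorylates the Mcm ring, read 6.84, 6.46, 6.85, 7.09 and 6.69 on the transgenic arrays, against 6.99, 7.32, 8.04, 7.23 and 7.44 on the wild-type arrays. Transgenic array 4 alone read above a wild-type array, and the change of Cdc7 was -0.62. Its activating partner Dbf4 had the smallest change of the 45, -0.05, with overlapping groups.

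The GINS complex, a part of the active helicase, has 4 subunits, with a median change of -0.39. Gins2 read 7.92, 8.40, 7.95, 7.87 and 7.80 on transgenic arrays 1 to 5, against 8.26, 8.84, 8.51, 8.60 and 8.23 on wild-type arrays 1 to 5. Transgenic array 2 overlapped the wild-type range and the other 4 transgenic arrays lay below it, with a change of -0.50 (SE 0.14, adjusted p = 0.368). Gins1 differed by -0.67, Gins4 by -0.27 and Gins3 by -0.16.

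**Figure D2:**
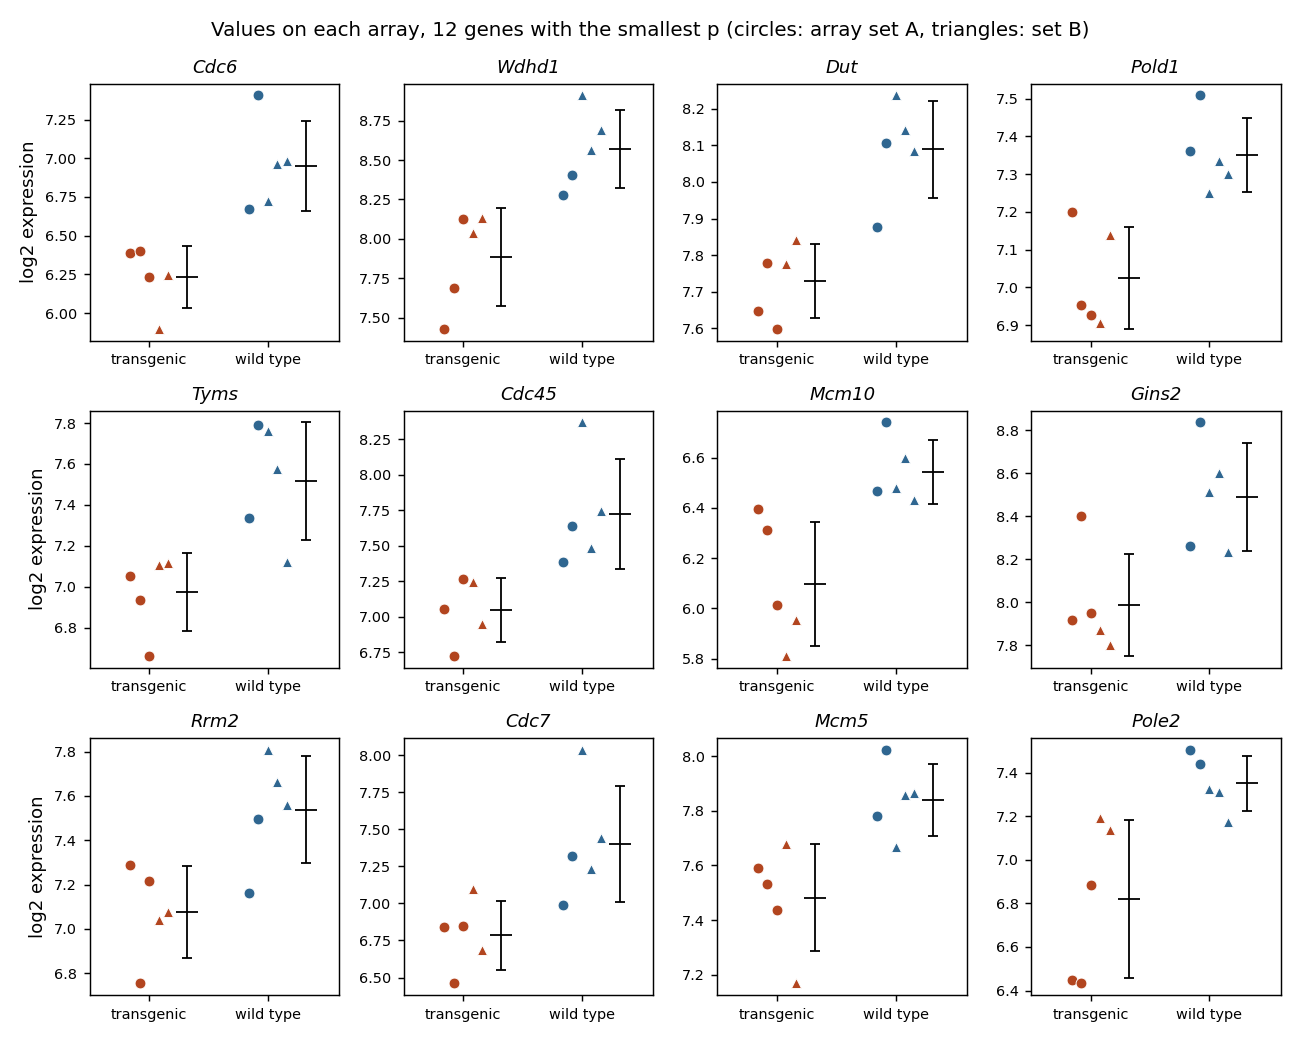
Each panel shows the log2 expression of 1 gene on the 10 arrays, transgenic left of wild type, for the 12 members with the smallest p. Circles are arrays of set A, triangles arrays of set B, and bars the group mean ± SD (n = 5); vertical axes differ and do not start at 0. In the panels of Cdc6, Wdhd1, Dut, Pold1, Tyms, Cdc45 and Mcm10 the groups do not overlap, and in the panel of Pole2 the transgenic circles lie below the transgenic triangles.

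The 7 polymerase and primase genes had a median change of -0.35, and 5 had an unadjusted p under 0.05. Pold1, the catalytic subunit of the lagging-strand polymerase delta, read 7.20, 6.95, 6.93, 6.90 and 7.14 on transgenic arrays 1 to 5, against 7.36, 7.51, 7.25, 7.34 and 7.30 on wild-type arrays 1 to 5. The groups did not overlap, the SD was 0.13 in transgenic and 0.10 in wild-type HSCs, and the change was -0.33 (SE 0.09, adjusted p = 0.290). Its partner Pold2 differed by -0.09. Pole2, the second subunit of the leading-strand polymerase epsilon, gave 6.45, 6.43, 6.89, 7.19 and 7.14 on the transgenic arrays, against 7.51, 7.44, 7.32, 7.31 and 7.18 on the wild-type arrays. Transgenic arrays 1, 2, 3 and 5 lay below all wild-type arrays, array 5 by less than 0.04, and the change was -0.53 (SE 0.16, adjusted p = 0.389). Pole, the catalytic subunit of epsilon, had a change of -0.40 (SE 0.17, adjusted p = 0.733). Prim2, the large primase subunit, had a change of -0.35 (SE 0.13, adjusted p = 0.563). Prim1, the primase subunit that makes the RNA primer, differed by -0.42. Pola1, the polymerase alpha catalytic subunit that extends the primer, read 7.48, 7.45, 7.87, 6.79 and 6.65 on the transgenic arrays, against 8.10, 8.14, 7.44, 7.19 and 7.07 on the wild-type arrays. That gene had the largest SD of the members in each group, 0.51 in transgenic and 0.50 in wild-type HSCs, with lower values on arrays of set B in both, and a change of -0.34.

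Pcna, the sliding clamp that holds polymerases on DNA and a common marker of cycling cells, was bright in both groups. Its values were 11.13, 11.08, 11.10, 10.76 and 10.96 on transgenic arrays 1 to 5, against 11.32, 11.24, 11.28, 10.90 and 10.97 on wild-type arrays 1 to 5. The groups overlapped, transgenic arrays 1, 2 and 3 lying above wild-type arrays 4 and 5, and the change was -0.14 (95% confidence interval -0.38 to 0.10). A further probe set of Pcna differed by -0.13. The Rfc2 to Rfc5 subunits of the clamp loader, which opens Pcna and sets it on DNA, had a median change of -0.42. Rfc2 averaged 7.94 ± 0.32 in transgenic HSCs and 8.54 ± 0.30 in wild-type HSCs (SD, n = 5 each), a change of -0.60 (SE 0.18, adjusted p = 0.389). Rfc3 averaged 8.47 ± 0.16 in transgenic HSCs and 8.94 ± 0.30 in wild-type HSCs (SD, n = 5 each), with a change of -0.47 (SE 0.14, adjusted p = 0.412). For both, 4 of 5 transgenic arrays lay below the lowest wild-type array. Rfc4 had a change of -0.37 (SE 0.18, adjusted p = 0.793), and its transgenic arrays 4 and 5, at 6.33 and 6.40, stood well below transgenic arrays 1 to 3, at 7.15 to 7.16. Rfc5 had a change of -0.22 (SE 0.16, adjusted p = 0.912).

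The 4 genes of single-strand binding and the lagging strand had a median change of -0.28, and none had an unadjusted p under 0.05. Rpa1, the large subunit of the single-strand binding protein RPA, had a change of -0.42 (SE 0.19, adjusted p = 0.765), and its partner Rpa2 one of -0.32 (SE 0.19, adjusted p = 0.888). The low end of both belonged to transgenic array 5, at 6.40 for Rpa1 and 6.39 for Rpa2. Fen1, the nuclease that trims Okazaki fragments, had a change of -0.25 (SE 0.13, adjusted p = 0.824). Lig1, the ligase that seals them, had a change of -0.18 (SE 0.15, adjusted p = 0.943), and wild-type array 5, at 6.92, was below all its transgenic arrays.

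Nucleotide supply had 5 genes with a median change of -0.36, and 3 had an unadjusted p under 0.05. Dut, the enzyme that removes dUTP and yields the precursor of thymidylate, read 7.65, 7.78, 7.60, 7.78 and 7.84 on transgenic arrays 1 to 5, against 7.88, 8.11, 8.24, 8.14 and 8.08 on wild-type arrays 1 to 5. Tyms, thymidylate synthase, gave 7.05, 6.94, 6.66, 7.11 and 7.11 on the transgenic arrays, against 7.33, 7.79, 7.76, 7.58 and 7.12 on the wild-type arrays. Neither gene's groups overlapped, though transgenic array 5 and wild-type array 5 of Tyms nearly met, at 7.11 and 7.12. The change was -0.36 (SE 0.09, adjusted p = 0.207) for Dut. For Tyms the change was -0.54 (SE 0.14, adjusted p = 0.290). Rrm2, the ribonucleotide reductase subunit made in S phase, read 7.29, 6.76, 7.22, 7.04 and 7.08 on the transgenic arrays, against 7.16, 7.50, 7.81, 7.66 and 7.56 on the wild-type arrays. Wild-type array 1 lay within the transgenic range, and the change of Rrm2 was -0.46 (SE 0.13, adjusted p = 0.375). Rrm1, the large and more stable subunit of that enzyme, differed by -0.13. Tk1, the cytosolic thymidine kinase of the salvage route, had a change of -0.31 (SE 0.17, adjusted p = 0.833), and a further probe set of Tk1 differed by -0.39.

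The last 4 members act on chromatin and fork stability and had a median change of -0.16. Uhrf1, which binds hemimethylated DNA behind the fork and recruits the methyltransferase Dnmt1, read 7.51, 7.04, 7.73, 7.33 and 6.63 on transgenic arrays 1 to 5, against 8.20, 8.53, 7.62, 7.75 and 7.68 on wild-type arrays 1 to 5. Transgenic array 3 alone overlapped the wild-type range, at 7.73 against 7.62 on wild-type array 3, and the change was -0.71 (SE 0.23, adjusted p = 0.455). Tipin, the Timeless partner that steadies stalled forks, had a change of -0.25 (SE 0.11, adjusted p = 0.759). Chaf1a and Chaf1b, subunits of the chromatin assembly factor that places histones on new DNA, had changes of -0.07 (SE 0.10, adjusted p = 0.965) and -0.08 (SE 0.17, adjusted p = 0.987), and the groups of both overlapped.

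Most members had the same direction in both array sets. Within set A 44 of 45 members had a negative change and the median was -0.36; within set B the values were 44 of 45 and -0.39. The change was negative in both sets for 43 members, against 30.2% of the tested probe sets. The exceptions were Rfc5, at 0.08 in set A, and Chaf1b, at 0.20 in set B. With the set as a block no member passed the adjusted p of 0.05, the smallest being 0.0502 for Cdc6, while 0.0769% of the tested probe sets passed and were lower. The sets came from the same values, so p-values with this block are descriptions only. A test of the difference between the sets' changes gave an unadjusted p under 0.05 for Pole2 (-0.88 in set A and -0.10 in set B, adjusted p = 1.00) and Rfc4 (-0.07 in set A and -0.84 in set B, adjusted p = 0.913), and neither passed after adjustment.

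**Figure D3:**
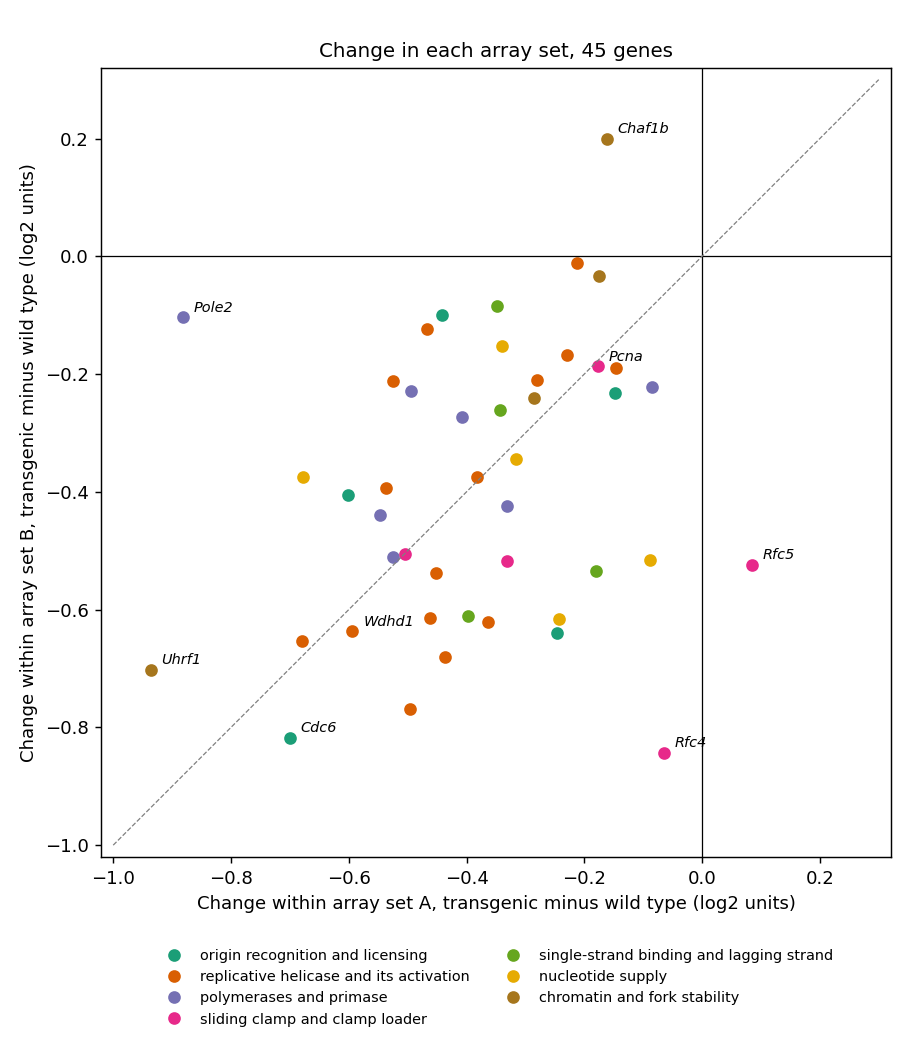
Each point is 1 of the 45 genes, with its log2 change (transgenic minus wild type) within array set A on the horizontal axis and within set B on the vertical axis; colours give the role and the dashed line marks equal changes. All points but Rfc5 and Chaf1b lie in the lower left, where both changes are negative, and Pole2 and Rfc4 lie far from the line.

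The mean deviation of the 45 genes from their own means over all arrays came to -0.14, -0.20, -0.10, -0.14 and -0.34 log2 units on transgenic arrays 1 to 5, against 0.13, 0.34, 0.25, 0.14 and 0.05 on wild-type arrays 1 to 5. The groups did not overlap, with transgenic array 5 lowest and wild-type array 2 highest. Of the 45 genes, 29 to 42 lay below their own mean on a transgenic array, against 2 to 21 on a wild-type array. Without transgenic array 5 the median change of the members was -0.29 and 42 were negative, and without wild-type array 2 the median was -0.31 and 42 were negative. Without transgenic array 4, the male array, the median was -0.37, 45 were negative and 12 had groups that did not overlap. Leaving out wild-type array 1 also gave 12, and fewer arrays make non-overlap easier. The share of all tested probe sets without overlap was not counted for these smaller groups.

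The cell type was checked on its markers. The 6 measured HSC genes, Procr, Fgd5, Hlf, Mecom, Meis1 and Hoxa9, lay between the 52.8 and the 96.5 percentile of tested probe sets. Procr differed by 1.08, Mecom by 0.33 and Fgd5 by 0.27. Each transgenic array read above each wild-type array for Procr. Hoxa9 differed by -0.29, Meis1 by -0.16 and Hlf by -0.004, and none of the 6 passed the adjusted threshold. Of 6 measured megakaryocyte and platelet genes all 6 had a negative change, and their mean deviation was -0.71 to -0.25 in transgenic HSCs and 0.15 to 0.82 in wild-type HSCs. The platelet chemokine gene Pf4, the marker that passed the adjusted threshold, fell by 2.53 on the log2 scale (limma adjusted p = 0.0112). The 3 multipotent progenitor genes all had a positive change, with a mean deviation of 0.01 to 0.60 in transgenic HSCs and -0.72 to -0.14 in wild-type HSCs, Flt3 differing by 1.53 (adjusted p = 0.132). The 9 granulocyte and monocyte genes had a mean deviation of -0.28 to 1.28 in transgenic HSCs, highest on array 5, and -0.49 to -0.02 in wild-type HSCs. The 6 endothelial genes had a mean deviation of -0.16 to 0.62 in transgenic HSCs and -0.36 to -0.20 in wild-type HSCs. Of the 6, 5 had a positive change, the largest 1.48, and the smallest limma adjusted p was 0.059. In 3 of them each transgenic array read above each wild-type array, against 205 of 23410 tested probe sets. The mean deviations of the 9 erythroid, 5 B cell and 6 T and NK cell genes overlapped between groups. Of the erythroid genes 6 had a negative change and 3 a positive one. Tfrc differed by -0.57, Epor by -0.46, Klf1 by -0.41, Car2 by -0.38, Slc4a1 by -0.14 and Alas2 by -0.004. Rhag differed by 0.32, Car1 by 0.30 and Ermap by 0.01. Epor and Nkg7 (-1.17) read lower on each transgenic array than on each wild-type array. Of the 5 B cell genes 3 had a negative change, Vpreb1 the lowest at -0.83, and 2 a positive one, with a median of -0.04. Of the 6 T and NK cell genes 5 had a negative change and 1 a positive one, Thy1 at 1.20. No gene of these 3 lists had an adjusted p under 0.05. Among the gate's own markers, Cd48, which the sort excludes, differed by 1.34 (limma adjusted p = 0.145) and Kit by -0.47 (adjusted p = 0.248). Slamf1, the gene of CD150, differed by 0.19 (limma adjusted p = 0.958) with overlapping groups. Ly6a, the gene of Sca1, had no probe set of its own and was not measured. Ly6g of the granulocyte list, Cd79a and Ebf1 of B cells and Cd3d and Cd3g of T cells lay below the 20th percentile of tested probe sets. The part of these markers in the members' differences was not tested.

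Other genes of the same pathways are given for comparison, by their counts. Over all tested probe sets 53.7% had a negative change and 2.9% were lower at an unadjusted limma p under 0.05. Each transgenic array read below each wild-type array in 0.594% of them. These shares are the background for every list here and in the next paragraph. Of 29 other replication factors 23 had a negative change, with a median of -0.22 and 9 at an unadjusted p under 0.05 and lower. In 4 of the 29 each transgenic array read below each wild-type array. Dscc1, a part of the alternative clamp loader, differed by -0.62, the helicase Mcm8 by -0.56 and the polymerase delta subunit Pold3 by -0.49, while the topoisomerase Top1 was highest at 0.24. Their mean deviation was -0.12 to -0.05 in transgenic HSCs and -0.03 to 0.23 in wild-type HSCs. Of 31 other nucleotide enzymes 29 were measured: 20 had a negative change, the median was -0.07, and 4 had an unadjusted p under 0.05 and were lower. Their transgenic arrays all lay below the wild-type arrays in 2 genes. Ctps, which makes CTP, differed by -0.52, the folate enzyme Shmt1 by -0.39 and the purine enzyme Pfas by -0.35, while Samhd1, which breaks down deoxynucleotides, was highest at 0.24. Of 9 measured chromatin assembly genes 8 had a negative change, with a median of -0.11 and 2 lower at an unadjusted p under 0.05. The chromatin remodeller Hells differed by -0.62, the histone chaperones Asf1b by -0.33 and Rbbp4 by -0.18, while Supt16 of the FACT chaperone was highest at 0.06.

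Genes of the E2F and retinoblastoma system, which control many of the members, had a negative change in 12 of 16, with a median of -0.13 and 5 lower at an unadjusted p under 0.05. Mybl2, a cell cycle transcription factor, differed by -0.73 (adjusted p = 0.117) with no overlap between groups. The atypical repressor E2f8 differed by -0.66 and the pocket protein Rbl1 by -0.43, Rbl1 also without overlap, while Lin9 of the MuvB complex was highest at 0.26. Of 23 measured mitosis genes 21 had a negative change, with a median of -0.23 and 4 lower at an unadjusted p under 0.05, and none of these lists had a gene past the adjusted threshold. The spindle checkpoint kinase Ttk differed by -0.62, Cdca8 of the chromosomal passenger complex by -0.57 and the mitotic kinase Cdk1 by -0.46. The groups of Cdk1 did not overlap, and the kinetochore motor Cenpe was highest at 0.11. The mean deviation of the mitosis genes was 0.40, -0.53, -0.15, 0.07 and -0.41 on transgenic arrays 1 to 5, against 0.01, 0.20, 0.27, -0.02 and 0.16 on wild-type arrays 1 to 5. Transgenic array 1 was highest of all 10 for mitosis, while the 45 replication and nucleotide genes read -0.14 on it.

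**Figure D4:**
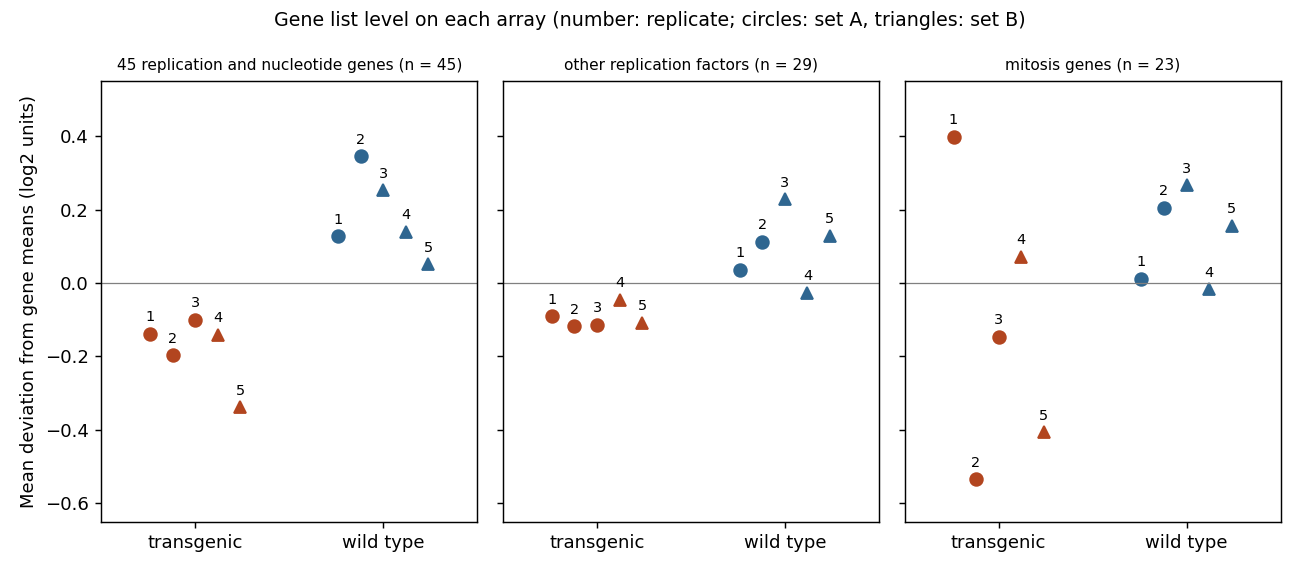
The mean deviation of a gene list from its genes' own means (log2 units, vertical axis) is shown for each array, transgenic left of wild type, for the 45 members, 29 other replication factors and 23 mitosis genes; numbers are replicates, circles set A and triangles set B. The transgenic arrays lie below the wild-type arrays for the 45 members (-0.34 to -0.10 against 0.05 to 0.34). They also do for the 29 other replication factors (-0.12 to -0.05 against -0.03 to 0.23), while the groups overlap for the mitosis genes.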

How the data were processed

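RNA of 10 HSC aliquots was amplified with a NuGEN WT-Ovation Pico kit and hybridised to Affymetrix Mouse Gene 1.0 ST arrays, per the labels' protocols. The authors deposited a table of log2 values for 35556 probe sets, made with RMA, affy and limma per the submitters' processing notes; RMA compresses differences between low values. The versions, settings and genome build of the array were not found in the labels. Groups came from the sample titles.

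The deposited log2 values were used unchanged. The 23410 probe sets with at least 1 symbol (21789 with 1, 1621 with several; 12146 unnamed here) entered limma 3.58.1 under R 4.3.3 (lmFit and eBayes). Changes are transgenic minus wild type, tests are two-sided, and p-values were adjusted by Benjamini-Hochberg over all these probe sets, with a threshold of 0.05. Arrays have no read depth; their number limits the precision. Replicate numbers were not taken to pair the samples. The correlations of same-numbered deviations were 0.24, 0.35, -0.14, 0.11 and 0.33, 1 of them below 0. Only the arrays numbered 3, with the negative value, fell in different array sets, so these correlations cannot decide the pairing.

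Every member is named, with full statistics for the 4 smallest p per role and array values for the 12 smallest p of the 45, Pcna, Rrm2 and Mcm2 to Mcm7; those of Pola1 and Uhrf1 were added after their values were seen, as were single marker genes. Of each other list, the 3 smallest p and the largest positive change are named. Members, lists and alternatives were chosen with earlier results of these data known. Alternatives were a replicate block, an array set block, each set alone, quantile normalization, median centring, brighter or all probe sets, the mean of a gene's probe sets, a trended robust eBayes, array weights, a floor at the 20th percentile and leaving out each array.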

Additional observations from a re-analysis of the deposited data

Results flagged for a closer look

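Of 90 groups of 5 arrays checked (45 members in each genotype), 3 held an array whose gap to the nearest other array exceeded 0.71 of the group's range; chance flags about 5% of groups. Orc6 read 7.49 on transgenic array 2, below the other transgenic arrays at 7.85 to 7.99 (gap 0.713 of the range). Mcm6 read 8.29 on transgenic array 5, below the others, the lowest of them at 8.87 (gap 0.820). Gins2 read 8.40 on transgenic array 2, above the others at 7.80 to 7.95 (gap 0.754).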

How the results depend on the processing

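No member passed the adjusted threshold without a block, or under any alternative except the replicate block. Under that block 1 member passed (Wdhd1, change -0.69, limma adjusted p = 0.0488). The share of all tested probe sets passing under it is not given here, and the replicate numbers were not shown to pair the samples. The median change of the 45 members lay between -0.39 and -0.29 when each array was left out, and between -0.39 and -0.35 under the other alternatives. The count with a negative change was 42 to 45 with each array left out. The count of members whose groups did not overlap came to 28 in set A alone and 27 in set B alone, where fewer arrays make non-overlap easier. It ranged from 7 to 12 with each array left out, reaching 12 when transgenic array 4 or wild-type array 1 was dropped. It was 5 with arrays centred on the median and 9 after quantile normalization. The share of all tested probe sets without overlap was not counted under any of these settings. These counts therefore have no background to be read against. Of 988 gene values under 22 settings, 11 turned positive, in 6 genes. Chaf1b was at 0.019 with the array set block and at 0.20 within set B, and ran from -0.21 to 0.036 with each array left out, positive without transgenic replicate 3. Rfc5 was at 0.084 within set A. With each array left out, Mcm3 ran from -0.19 to 0.0063, Dbf4 from -0.15 to 0.078, Rrm1 from -0.25 to 0.032 and Chaf1a from -0.11 to 0.011. Their positive values came without transgenic replicate 5 (Mcm3, Dbf4 and Rrm1), without wild-type replicate 2 (Mcm3, Dbf4 and Chaf1a) or without wild-type replicate 3 (Dbf4). The cause of these turns was not tested. With 5 arrays a group, changes near the members' median were not called after adjustment over 23410 probe sets.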

Other observations

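The members were also split by the E2F words of their promoter windows. The median change was -0.33 for the 14 members with a word, of which 10 had an unadjusted p under 0.05, and -0.34 for the 22 members with a window but no word, of which 9 had one. No test of this split was run.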
